A study of Homo sapiens with 79 samples.

Results

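WDR5 and RBBP5 are subunits of the same chromatin complex, and the RNA recovered with each was compared directly: the 3 WDR5 fRIP libraries against the 3 RBBP5 fRIP libraries, 6 of the 79 libraries of the series. Formaldehyde RNA immunoprecipitation (fRIP) fixes proteins to RNA in living cells with formaldehyde, shears the lysate by sonication, pulls a protein down with an antibody and sequences the RNA that comes with it. The cells were K562, an established human erythroleukemia line, untreated and unmodified, fixed in 0.1% formaldehyde for 10 minutes and sonicated for 90 seconds in all 6 cases, so that the groups differ by antibody alone as far as the labels state. Each protein was pulled down with a single antibody product in biological triplicate from different lysates, and ribosomal RNA was depleted before library construction. Input libraries were used here only to state how abundant an RNA was in the lysate.

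WDR5 and RBBP5 are WD40-repeat proteins that, with ASH2L and DPY30, form the core on which the SET1 and MLL (KMT2) enzymes methylate histone H3 lysine 4, a mark of active promoters. RBBP5 is known mainly from this core. WDR5 is also a subunit of the NSL and ATAC acetyltransferase complexes, and it has been described as a partner of long noncoding RNAs (lncRNAs). Proteins of one complex could be expected to recover similar RNA, and the direct comparison asks where they did not.

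Fragment depth, estimated from the steps between the lowest values of single-isoform genes, was about 22.8 M, 29.5 M and 7.96 M for the WDR5 libraries and 6.73 M, 8.07 M and 7.44 M for the RBBP5 libraries, so WDR5 replicate 3 had the depth of the RBBP5 libraries and the other 2 were deeper. The 6 libraries expressed the line's own markers, among them HBG2 at 526 to 695 FPKM, GATA1 at 45.4 to 81.4 FPKM and BCR at 81.1 to 191 FPKM. Among markers of other cell types CD3E, MS4A1, CD14, ALB and KRT5 were low, none above 0.443 FPKM, and EPCAM was as high in input (26.6 to 45.0 FPKM) as in the 6 libraries (21.7 to 36.7 FPKM). FPKM is the number of fragments per kilobase of transcript, scaled to the size of the library.

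The RNA composition of the pull-downs differed by protein. Over log2(FPKM + 1) of the 25442 genes tested, pairs of libraries of one protein correlated at 0.946 to 0.985 (Pearson's r across genes, which are not independent replicates) and pairs of different proteins at 0.893 to 0.922, without overlap. A gene was called when limma on log2(FPKM + 1) gave a p under 0.05 after Benjamini-Hochberg adjustment and the log2 difference exceeded 1. By this rule 1319 genes (5.18%) were higher in WDR5 and 3284 (12.9%) higher in RBBP5 fRIP. Every WDR5 library lay above every RBBP5 library for 4019 genes (15.8%), and the reverse held for 6992 (27.5%). Among 276 pairs of 24 proteins the pair lay near the middle: its 4603 called genes had rank 125 from the fewest as deposited, below the median of 4976.5 genes, and with libraries centred on their median its 5732 genes had rank 157, above the median of 5127.5. WDR5 had fewest calls against NUP98, a nuclear pore protein (379 genes), and RBBP5 against CHD7, a chromatin remodeler (1419 genes), as deposited; both stayed first after centring, with 339 and 1505 genes. These pair counts share libraries, rest on different replicate numbers and are given as a description.

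The split of the calls depended on the scale. The library medians of log2(FPKM + 1) were 1.49 to 1.57 in WDR5 and 2.04 to 2.13 in RBBP5. By mean FPKM over the 6 libraries, the median difference was −0.13 below 1 FPKM, −0.50 from 1 to 3, −0.10 from 3 to 10, 0.09 from 10 to 30, 0.06 from 30 to 100 and −0.03 above. Among the 10801 genes with a mean of at least 5 FPKM, tested alone, 1118 were higher in WDR5 and 1031 in RBBP5, so the split depended on the minimum level too. Centring each library on its median moved the median over all genes from −0.11 to 0.45 and turned the counts to 4297 higher in WDR5 (16.9%) and 1435 higher in RBBP5 (5.64%). The 1319 genes called higher in WDR5 as deposited were called so after centring too, and so were the 1435 genes called higher in RBBP5 after centring when taken as deposited. Centring moved each difference by 0.56 toward WDR5, so this overlap was close to fixed in advance and is no second test. The rule is stricter for RBBP5 than for WDR5, and its counts do not compare the directions on like terms. These 1319 and 1435 genes are meant below by "on both scales", 5.18% and 5.64% of those tested. Genes are named one by one only from among them, except for members of fixed lists. Fold changes on the log2(FPKM + 1) scale understate the change of genes near or below 1 FPKM.

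WDR5 fRIP was richer in mRNA and RBBP5 fRIP in noncoding RNA. Genes annotated as mRNA held 88.1%, 87.9% and 88.5% of the summed FPKM in the WDR5 libraries and 75.3%, 76.2% and 77.5% in the RBBP5 libraries. The lncRNA share was 5.67%, 5.16% and 5.20% in WDR5 and 10.4%, 9.37% and 9.70% in RBBP5. Mitochondrial tRNA genes, short genes whose FPKM is unstable, took 1.20% to 1.48% in WDR5 and 5.55% to 7.14% in RBBP5. Pseudogenes took 2.18% to 3.43% against 3.64% to 4.52%. None of these 4 shares overlapped between the proteins, and each gave p = 0.1 in a two-sided exact permutation test, the smallest p that 3 against 3 allows. With mitochondrial tRNA genes left out of the total the WDR5 mRNA share was still 8.01 percentage points above that of RBBP5, against 11.8 with them. MALAT1 alone took 0.138% to 0.226% of the WDR5 and 2.25% to 2.89% of the RBBP5 total.

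**Figure D1:**
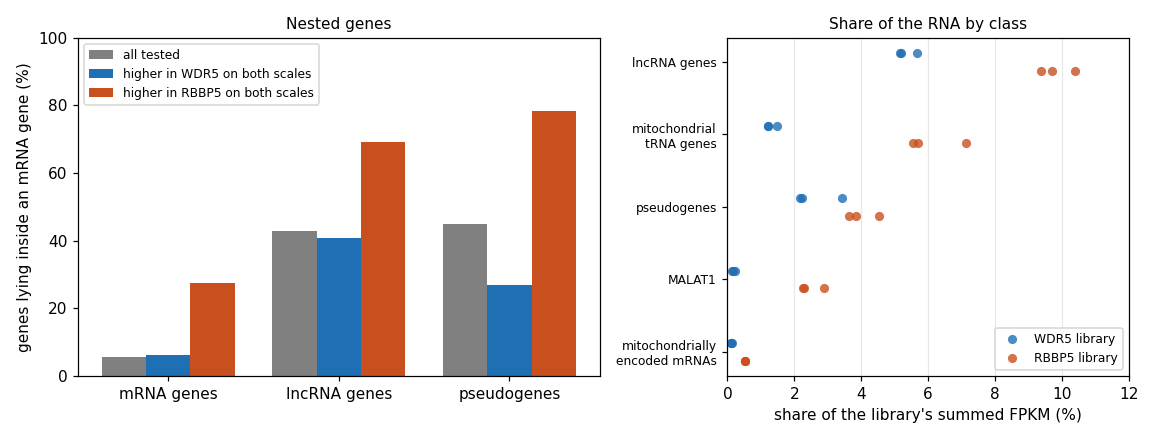
Left, the percentage of mRNA genes, lncRNA genes and pseudogenes lying inside the span of an mRNA gene, for all genes tested (grey), genes called higher in WDR5 (blue) and genes called higher in RBBP5 (orange) on both scales; 78.2% of RBBP5-higher pseudogenes were nested against 45.0% of all. Right, the share of each library's summed FPKM (%) held by classes of RNA, 1 point per library; the RBBP5 points lie above the WDR5 points in every row.

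Called genes by class depended on the scale, and pseudogenes alone of the 4 main classes had more calls toward RBBP5 on each. Of 13618 mRNA genes tested, 1042 were higher in WDR5 and 864 higher in RBBP5 as deposited, 3306 and 239 after centring, and 1042 and 239 on both scales. Of 5245 lncRNA genes 159 were higher in WDR5 and 1047 in RBBP5 as deposited, 551 and 489 after centring, and 159 and 489 on both scales. Of 5247 pseudogenes the counts were 71 and 1123 as deposited, 291 and 579 after centring, and 71 and 579 on both scales. Another 1163 genes that the annotation used here does not hold gave 44 and 208 as deposited, 132 and 104 after centring, and 44 and 104 on both scales. The median difference was 0.01 over mRNA genes, −0.24 over lncRNA genes and −0.30 over pseudogenes as deposited, and 0.57, 0.32 and 0.27 after centring. Over all mRNA genes, 7.65% were thus called higher in WDR5 and 6.34% in RBBP5 as deposited, 24.3% and 1.76% after centring, and 7.65% and 1.76% on both scales, and the lists of mRNAs described below are to be read against these shares. Counts at an unadjusted p under 0.05 by limma, given below for many lists, have no such share, as it was not taken over all genes.

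The 10 mRNAs with the largest difference toward WDR5 had 57.4% to 69.9% GC in their leading transcripts, which had 1 to 4 exons. The largest difference was that of CHST2, a sulfotransferase of the Golgi, which measured 122.6, 116.2 and 116.6 FPKM in the WDR5 libraries and 15.6, 19.5 and 15.5 FPKM in the RBBP5 libraries. The groups lay far apart, and the log2 difference was 2.75 ± 0.17 (SE, adjusted p = 2.24e-19 by limma). CHST2 lies at chr3:142838613-142842856 on the plus strand of hg19, the build used for all positions here. PPP1R26, a regulatory subunit of protein phosphatase 1, measured 98.9, 83.4 and 114 FPKM with WDR5 and 14.5, 11.999 and 15.8 FPKM with RBBP5 (2.72 ± 0.20, adjusted p = 1.16e-16). B3GALT6, a galactosyltransferase of proteoglycan linker synthesis, measured 49.5, 47.8 and 65.6 FPKM against 6.87, 8.00 and 9.05 FPKM. JUND, an AP-1 transcription factor, stood at 179, 184 and 190 FPKM in WDR5 and 28.6, 37.2 and 34.3 FPKM in RBBP5, a difference of 2.44 ± 0.24 (adjusted p = 1.3e-12). CENPB, which binds centromeric DNA, was highest in WDR5 replicate 3 (72.7, 77.6 and 149 FPKM) and also in RBBP5 replicate 3 (13.2, 16.4 and 23.8 FPKM). BBC3, the apoptosis activator PUMA, was lowest in replicate 3 of both proteins, with 133, 98.2 and 22.8 FPKM in WDR5 and 18.7, 19.7 and 4.72 FPKM in RBBP5. Its groups did not overlap, and its call was lost in a fit of the 6 libraries alone (adjusted p = 0.107 by limma).

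The other 4 mRNAs of the set began from lower values. ZBTB42, a zinc finger and BTB domain protein, GTDC2 (now POMGNT2), a glycosyltransferase of dystroglycan, and MGAT3, the enzyme that adds bisecting N-acetylglucosamine, differed by 2.63, 2.61 and 2.41 on the log2 scale. AC005280.1 (now RIOX1), an oxygenase of ribosomal proteins and histones, differed by 2.73, with 6.22, 7.17 and 20.9 FPKM in WDR5 and 0.00285, 3.40 and 0.00257 FPKM in RBBP5. In a fit of the 6 libraries alone its adjusted p by limma was 0.0558, above the threshold, and 0.098 with the replicate number added as a block. The 10 mRNAs lay among 910 that met every condition but the ranking.

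The 10 mRNAs with the largest difference toward RBBP5 reached at most 14.5 FPKM in any WDR5 library, and 7 of them lie inside another mRNA gene. Their GC content was 33.0% to 38.6% in 6 of the 9 with a matched transcript and 48.5% to 50.7% in the other 3. GPR22, an orphan receptor, measured 1.18, 0.822 and 2.10 FPKM with WDR5 and 23.0, 24.3 and 26.9 FPKM with RBBP5 (log2 difference −3.47 ± 0.23, adjusted p = 1.54e-18). It lies at chr7:107110463-107116129, inside COG5 and on its opposite strand, and COG5 itself measured 37.7, 43.3 and 53.4 FPKM against 73.7, 63.6 and 86.3 FPKM. LRRN3, a leucine-rich repeat neuronal protein, lies inside IMMP2L in the same way and measured 1.14, 1.17 and 1.39 FPKM against 23.1, 22.8 and 18.6 FPKM. OGN, the small proteoglycan osteoglycin, lies inside CENPP and measured 0.741, 0.699 and 2.68 FPKM against 17.2, 18.8 and 24.8 FPKM. The olfactory receptor genes OR52D1 and OR51I2 lie inside an annotated HBG2 gene that spans the globin locus, and differed by −3.26 and −3.20, while HBG2 itself differed by −0.09 (adjusted p = 0.967). KCNJ16, an inward-rectifier potassium channel, measured 4.01, 3.34 and 2.14 FPKM against 68.6, 49.2 and 21.4 FPKM and is not inside an mRNA gene. The library kit does not keep the strand of the RNA, so reads of a nested gene and of its host's intron cannot be told apart.

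The other 4 by rule were HOOK2, AL590452.1, AL136115.1 and ZNF888. HOOK2, a microtubule linker, had the largest difference, with 7.41, 7.91 and 8.64 FPKM in WDR5 and 155, 122 and 255 FPKM in RBBP5 (−4.24 ± 1.04, adjusted p = 6.62e-04). Its RBBP5 signal lay almost wholly in one annotated isoform of 108 bases, at 95.8%, 92.8% and 96.2% of the gene's FPKM, against 0% in each WDR5 library, and FPKM of so short an isoform is uncertain. AL590452.1 lies inside PDE4DIP and AL136115.1 inside PTP4A2, and neither host was called (0.09 and −0.02). Of the bases of ZNF888's leading isoform, 50.2% lay in stretches of 25 shared with other genes, so its value is uncertain.

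Coding sequence from the named mRNAs shows the contrast in composition. In the 3 WDR5-favoured and 3 RBBP5-favoured mRNAs of largest difference that had such a window, the first 30-base window inside a coding exon with the most copies of CCGG (WDR5) or AAAT (RBBP5) was read from GRCh37, 5′ to 3′ on the gene's strand. These 4-mers had the highest and the lowest correlation with the difference over all mRNAs, as described after the sequences, and capitals mark their copies.
CHST2 (chr3:142839964-142839993, plus strand): ctgggggcgcccagggccgcctCCGGCCGG
AC005280.1 (chr14:73957982-73958011, plus strand): cgtcCCGGacgcagcCCGGcgagagccata
PPP1R26 (chr9:138376785-138376814, plus strand): aaagagtggagccgcacagcCCGGggCCGG
AL590452.1 (chr1:144989989-144990018, plus strand): aaaAAATttattacgatgatttacaaAAAT
GPR22 (chr7:107115040-107115069, plus strand): gtAAATtttttcagtcttcaaagtggAAAT
KCNJ16 (chr17:68128933-68128962, plus strand): taaagacctcAAATtagtcaacgaccAAAT
The WDR5 windows held 73.3% to 90% GC and the RBBP5 windows 13.3% to 33.3%, as the choice of motif favours. The whole leading transcripts, chosen without the motif, had 57.4% GC for CHST2, 58.6% for AC005280.1 and 60.1% for PPP1R26, and 36.8% for AL590452.1, 33.6% for GPR22 and 35.9% for KCNJ16.

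**Figure D2:**
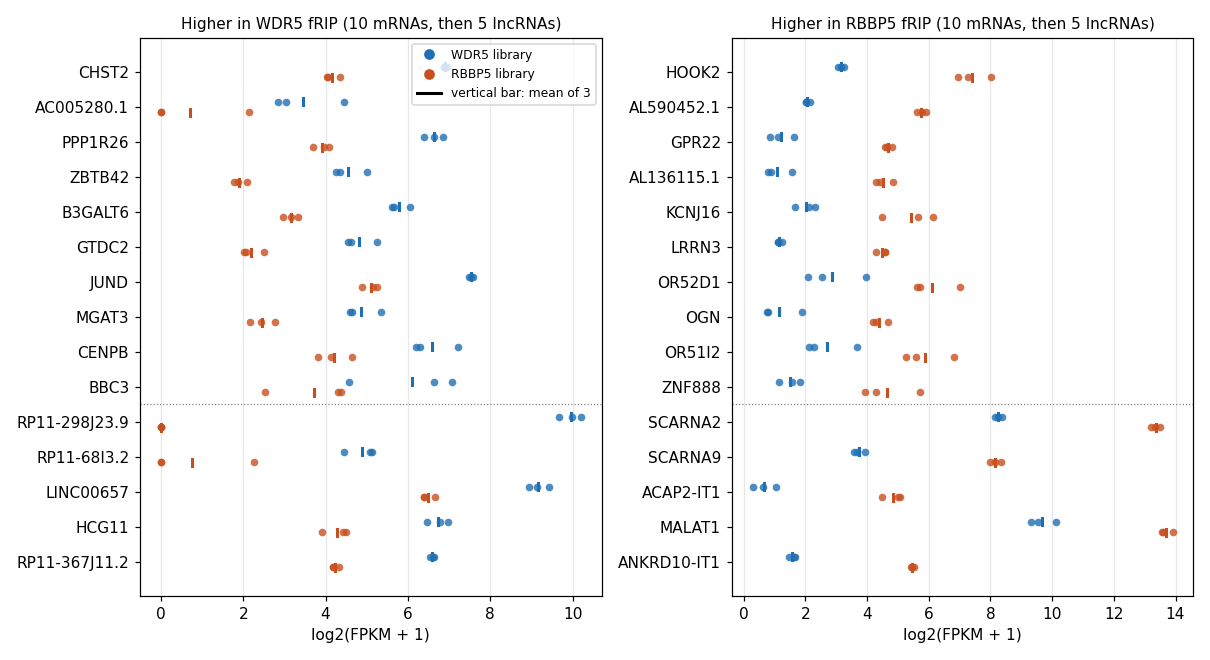
log2(FPKM + 1) of the 10 mRNAs and, below the dotted line, 5 lncRNAs with the largest difference toward WDR5 (left) and toward RBBP5 (right); each point is 1 library and each vertical bar the mean of 3. Blue (WDR5) and orange (RBBP5) points do not overlap for any of the 30 genes, as the rule for choosing them required.

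GC content followed the difference over all mRNAs. Spearman's correlation between GC content and the WDR5/RBBP5 difference, taken for each WDR5 library against the RBBP5 mean over 13574 mRNA genes, was 0.38 ± 0.01 (SD, n = 3 libraries). It is a description across genes that share the same 6 libraries. In the quintile of mRNAs with the least GC (23.0% to 41.1%) 46 were called higher in WDR5 and 459 higher in RBBP5 as deposited, with a median difference of −0.39, and 46 and 121 on both scales. In the quintile with the most (58.7% to 81.5%) the counts were 396 and 19 as deposited and 396 and 1 on both scales, and the median was 0.29. The medians of the 3 quintiles between were −0.11, 0.03 and 0.16. mRNAs called on both scales had a median GC content of 56.2% where higher in WDR5 and 40.8% where higher in RBBP5, against 49.1% of all tested.

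lncRNA genes showed the same gradient at lower values. Spearman's correlation was 0.36 ± 0.01 over 5230 lncRNA genes, and the median difference ran from −0.79 in the quintile with the least GC to 0 in the quintile with the most. Of the 1046 lncRNA genes with the least GC 438 were called higher in RBBP5 and 9 higher in WDR5 as deposited, and 241 and 9 on both scales. For mRNAs, Spearman's correlation was 0.36 in the 5902 genes with no annotated retained intron isoform and 0.36 when the FPKM of protein-coding isoforms alone stood for the gene. After regression on log2 exon number it was 0.37, after transcript length 0.36 and after the gene's genomic span 0.30.

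All RNA 4-mers were counted on the sense strand of mRNAs, with overlapping copies. The highest Spearman's correlation with the WDR5/RBBP5 difference was that of CCGG at 0.37 and the lowest that of AAAU at −0.32. The 4 highest held G and C alone, and of the 4 lowest 3 held A and U alone. UUUUAAAA, a motif the study examined, gave −0.15 ± 0.01 for its number per kilobase, and it occurred in 39.8% of mRNAs called higher in RBBP5, in 22.3% of those higher in WDR5 and in 28.9% of all tested. AUUUA, the core of AU-rich elements, gave −0.23 and GGGGG gave 0.24. These words share base composition with GC content and with each other.

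**Figure D3:**
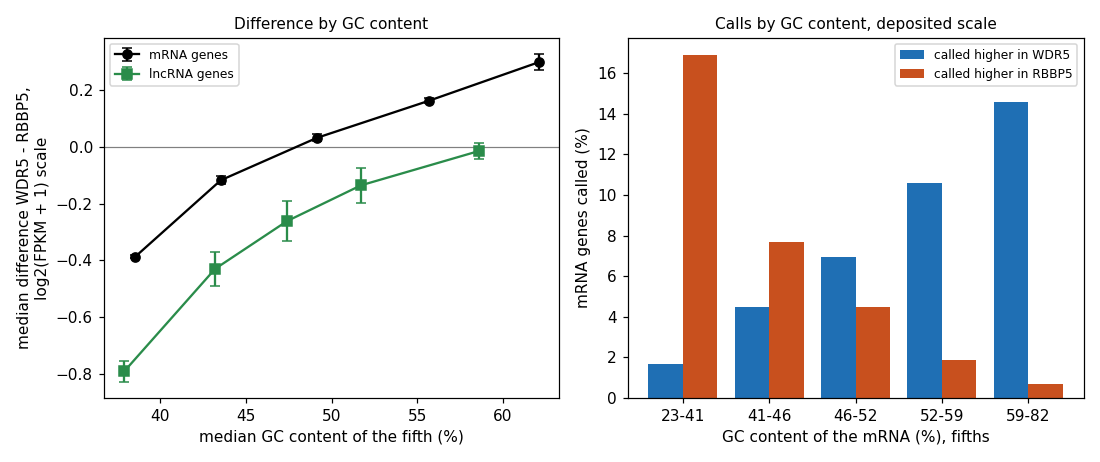
Left, the median WDR5 minus RBBP5 difference on the log2(FPKM + 1) scale for quintiles of mRNA genes (circles) and lncRNA genes (squares) by GC content, as the mean ± SD over 3 WDR5 libraries each set against the RBBP5 mean; both rise with GC, from −0.39 to 0.30 in mRNAs. Right, the percentage of mRNA genes in each quintile called higher in WDR5 (blue) or in RBBP5 (orange) on the deposited scale.

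Exon number told the proteins apart more than length did. Spearman's correlation was −0.18 ± 0.02 with exon number and −0.11 ± 0.02 with mRNA length. With exon number regressed out first, length kept −0.02 ± 0.01, while exon number kept −0.13 ± 0.01 after length. mRNAs of 17 or more exons gave 35 calls for WDR5 and 214 for RBBP5 out of 1942 as deposited, with a median of −0.29, but 35 and 28 on both scales. Single-exon mRNAs gave calls in both directions, 75 and 71 of 414 as deposited and 75 and 51 on both scales. For lncRNA genes the relation with exon number turned (0.10 ± 0.02) and that with length was 0.01 ± 0.02. The mean input FPKM was close to unrelated to the difference in mRNAs (0.03 ± 0.05), and its sign changed with the minimum level asked of a gene.

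Isoforms annotated as retaining an intron were used far more in RBBP5 fRIP. In the 5637 mRNA genes with an annotated retained intron isoform and a mean of at least 5 FPKM, the median share of the gene's FPKM in such isoforms was 5.22%, 5.34% and 6.84% in the WDR5 libraries and 17.6%, 17.5% and 19.4% in the RBBP5 libraries. The means differed by −12.3 percentage points, from 5.80% ± 0.91 with WDR5 to 18.1% ± 1.1 with RBBP5 (SD, n = 3 each, two-sided exact permutation p = 0.1, the smallest possible). WDR5 replicate 3, at 7.96 M fragments, had the highest share of its group, and the part of depth in the difference was not tested. Every RBBP5 library lay above every WDR5 library in 3378 of these genes (59.9%), and the reverse held in 136 (2.41%).

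Other isoform types moved the other way or less. Protein-coding isoforms made up a median of 83.3% to 85.2% of the gene's FPKM in WDR5 and 71.9% to 73.8% in RBBP5 (9080 genes). Isoforms with no defined coding sequence made up 3.90% to 4.26% against 7.27% to 7.86%. Targets of nonsense-mediated decay, a pathway that removes mRNAs with early stop codons, were at 5.07% to 5.37% in WDR5 and 4.40% to 4.57% in RBBP5. The retained intron share was higher with RBBP5 in every quintile of GC content, from 17.3% to 17.7% against 4.22% to 4.76% in the lowest to 19.9% to 24.1% against 9.12% to 12.4% in the highest. The isoform table used has no unspliced isoforms, so unspliced RNA and a retained intron cannot be told apart.

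**Figure D4:**
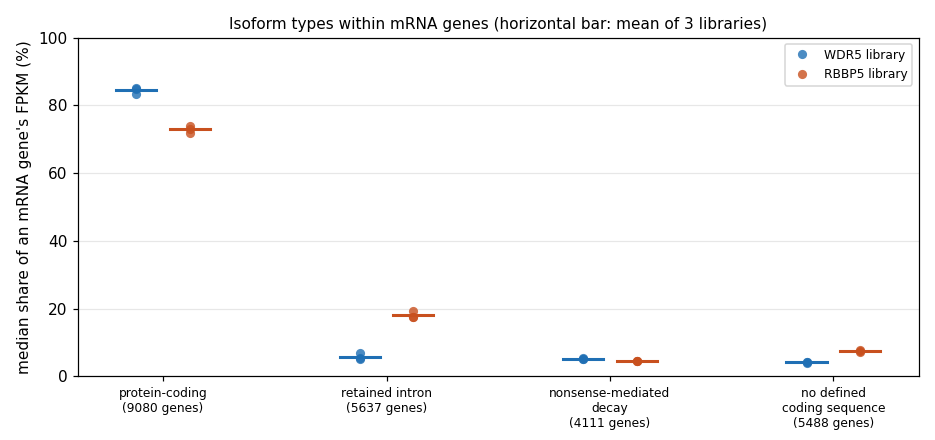
Median share (%) of an mRNA gene's FPKM held by 4 annotated types of isoform, 1 point per library (blue WDR5, orange RBBP5), with a horizontal bar at the mean of 3. Retained intron isoforms sit at 5.22% to 6.84% in WDR5 and 17.5% to 19.4% in RBBP5, and protein-coding isoforms are higher in WDR5.

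Tested isoform by isoform, usage is the log2 ratio of an isoform to the rest of its gene, which the scale of a library changes only through the pseudocount. Of 39294 isoforms in 8721 genes, 5113 (13.0%) had higher usage in WDR5 and 8037 (20.5%) in RBBP5 (limma, adjusted p under 0.05 and a difference above 1). Retained intron isoforms gave 282 and 4029 of 9248, with a median of −0.91, while protein-coding isoforms gave 3795 and 2181 of 20692, with a median of 0.25. Of the 5608 genes with a called isoform, 3044 had one in each direction and 4711 were not themselves called as genes.

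Individual isoforms changed strongly in usage, with near-complete switches in some genes. In PHB2, which encodes prohibitin 2 of the inner mitochondrial membrane, the 4-exon retained intron isoform ENST00000537646 held 15.7%, 13.3% and 18.1% of the gene in WDR5 and 84.5%, 84.1% and 82.8% in RBBP5 (log2 usage −4.75 ± 0.25, adjusted p = 2.75e-22 by limma). Its 10-exon protein-coding isoform ENST00000535923 held 63.5%, 67.9% and 59.0% in WDR5 and no more than 1.13% in RBBP5. The long coding isoform of WSB1 (ENST00000262394), an E3 ligase adaptor, held 74.0%, 68.6% and 79.4% in WDR5 and at most 0.00077% in an RBBP5 library. PAXBP1, SREK1, H2AFV and RBM39, the last a splicing factor, completed the 6 with the largest rise in WDR5. RBM39's 17-exon coding isoform held 14.5%, 17.6% and 20.9% of the gene in WDR5 and close to 0 in RBBP5.

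Toward RBBP5 the others were HOOK2, PLA2G12A, SLC38A2, PPIL2 and UBE2K. The long coding isoforms of PLA2G12A, a secreted phospholipase, and of UBE2K, a ubiquitin-conjugating enzyme, rose from 26.5% to 29.4% and from 42.0% to 50.3% in WDR5 to 93.2% to 99.8% and 94.5% to 98.9% in RBBP5. Both isoforms are annotated as protein coding. The PPIL2 isoform has 149 bases, and its share is as uncertain as that of HOOK2. Shares near 0 are estimates of the authors' abundance model and not counts.

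Genes inside other genes made up a larger share of those that favoured RBBP5. An mRNA gene's span enclosed 27.6% of the mRNA genes called higher in RBBP5 on both scales, 6.24% of those higher in WDR5 and 5.53% of all tested. The numbers were 69.1%, 40.9% and 43.0% for lncRNA genes and 78.2%, 26.8% and 45.0% for pseudogenes. Nested lncRNA genes were called higher in RBBP5 at 24.2% where the host was on the same strand and at 11.9% where it was on the other strand alone, against 5.05% of those not nested, on both scales. The order of the strands was the other way in pseudogenes, 15.4% on the same and 21.4% on the other strand against 4.37% not nested, and in mRNA genes, 6.44% and 10.3% against 1.34%. The 653 hosts of these nested genes had a median difference of −0.30, with 88 of them called higher in RBBP5 and 29 higher in WDR5 as deposited. Over all mRNA genes, the class of the hosts, the median was 0.01, with 6.34% called higher in RBBP5 and 7.65% higher in WDR5.

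Transcripts named for introns fell on the RBBP5 side. The lists of this and the next paragraph were drawn up after values were seen and are a description. Of 75 transcripts named as intronic (suffix IT), 28 were higher in RBBP5 on both scales (46 as deposited) and none in WDR5 (1 after centring, 1 without WDR5 replicate 3, and 0 at an unadjusted p under 0.05 by limma). Of all lncRNA genes 9.32% were higher in RBBP5 on both scales, and of those nested on the same strand 24.2%. ACAP2-IT1 measured 1.05, 0.531 and 0.229 FPKM in WDR5 and 30.9, 32.4 and 21.5 FPKM in RBBP5, and its host ACAP2, on the same strand, 52.1, 41.1 and 45.9 FPKM against 125.5, 116.5 and 106.4 FPKM. ANKRD10-IT1 measured 1.75, 2.07 and 2.17 FPKM against 44.6, 42.5 and 41.9 FPKM. Of 1029 antisense RNAs named AS, 54 were higher in WDR5 and 153 in RBBP5 as deposited, 166 and 58 after centring, and 54 and 58 on both scales. Of all lncRNA genes 3.03% were higher in WDR5 and 19.96% in RBBP5 as deposited, and 3.03% and 9.32% on both scales. The median of the AS list was −0.16 as deposited, against −0.24 over lncRNA genes, so the list did not lean further toward RBBP5 than lncRNA genes did.

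Sensory receptor genes, which have few exons and are silent in most tissues, fell on the same side. Of 118 olfactory receptor genes and pseudogenes tested 40 were higher in RBBP5 on both scales and 1 in WDR5, or 0 without WDR5 replicate 3. Among the 21 of the OR51, OR52 and OR56 families on chromosome 11, next to the globin genes, 13 were higher in RBBP5. Of 21 bitter taste receptor genes, 14 were higher in RBBP5 on both scales and none in WDR5 on either, with 19 and 0 at an unadjusted p under 0.05 by limma. Inside an mRNA gene lie 15 of the 21, and 13 of these 15 were higher in RBBP5 on both scales. Chromosome 12 held 13 of the 21, with 11 of them so called. Reads of a nested receptor gene and of its host's intron cannot be told apart. TAS2R14, the most abundant, measured 3.35, 3.07 and 4.03 FPKM in WDR5 and 17.1, 15.4 and 17.1 FPKM in RBBP5. These families share sequence among their members.

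Nuclear and structural lncRNAs fell mostly on the RBBP5 side. In a fixed list of 16 tested, 6 were higher in RBBP5 on both scales and 1 in WDR5, with a median of −0.93. Over all lncRNA genes 9.32% and 3.03% were so called, with a median of −0.24. MALAT1, a lncRNA of nuclear speckles, measured 749, 642 and 1119 FPKM in WDR5 and 15301, 12163 and 12398 FPKM in RBBP5. The difference was −4.02 ± 1.31 (adjusted p = 0.011 by limma). Of its bases 95.2% lay in 25-base stretches that an overlapping antisense gene shares, and the kit does not keep the strand. NEAT1, the scaffold of paraspeckles, measured 36.2, 35.8 and 35.8 FPKM against 169, 163 and 106 FPKM. KCNQ1OT1, an imprinted nuclear RNA, measured 0.499, 0.443 and 0.718 FPKM against 6.05, 4.53 and 5.38 FPKM. TERC, the telomerase RNA, measured 24.3, 19.6 and 25.3 FPKM against 331, 293 and 301 FPKM. RMRP, the RNA of RNase MRP, and RN7SL1, the signal recognition particle RNA, differed by −2.01 and −1.99. RMRP averaged 493 FPKM in WDR5, 2033 FPKM in RBBP5 and 2121 FPKM in input.

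On both scales the list's 1 member higher in WDR5 was LINC00657 (NORAD), a cytoplasmic lncRNA that sequesters Pumilio proteins. TUG1 and PVT1 were called higher in WDR5 after centring alone (0.61 and 0.48 as deposited). NORAD measured 560, 490 and 693 FPKM in WDR5 and 82.7, 83.2 and 99.8 FPKM in RBBP5, a difference of 2.69 ± 0.15 (adjusted p = 1.38e-20), with 63.8 FPKM in input. It had 41.8% GC, below the median of all mRNAs, and 64.1% of it lay in 25-base stretches shared with other genes, so its level is uncertain. HCG11 differed by 2.46, with 124, 109 and 86.8 FPKM against 21.6, 20.6 and 14.0 FPKM, with 41.7% GC and 33.7% of its bases in shared stretches. RP11-367J11.2 differed by 2.36, and of its leading isoform 60.9% lay in 25-base stretches shared with other genes. The remaining pair by rule was less certain. RP11-298J23.9 has 68 bases and was listed at 0 in every RBBP5 library and at 814 to 1172 FPKM in WDR5, with all of its bases shared. RP11-68I3.2 was listed at 0 in RBBP5 replicates 2 and 3.

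Small Cajal body RNAs (scaRNAs), which guide modification of spliceosomal RNAs, were higher in RBBP5. SCARNA2 measured 331, 301 and 280 FPKM in WDR5 and 10430, 9528 and 11538 FPKM in RBBP5 (−5.11 ± 0.22, adjusted p = 6.31e-26), with 672 FPKM in input. SCARNA10 measured 30.6, 22.4 and 30.7 FPKM against 2844, 3214 and 3060 FPKM, a difference of −6.73 ± 0.33. SCARNA9 lies inside KIAA1731, itself called higher in RBBP5 as deposited (−1.06). All 5 scaRNAs tested were called higher in RBBP5 as deposited and 4 of them on both scales. SCARNA22 lost its call in a fit of the 6 libraries alone (adjusted p = 0.0892 by limma), and also with the replicate number added as a block (0.111). It lost it without WDR5 replicate 1 too (adjusted p = 0.118 by limma). The list was drawn up after values were seen.

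Pseudogenes and other small classes are named by their 2 most abundant members. The pseudogenes toward WDR5 were PSMD5-AS1, at 643, 463 and 375 FPKM against 176, 143 and 90.0 FPKM, and ZBED6CL, at 104, 87.2 and 127 FPKM against 18.1, 18.1 and 21.7 FPKM. CTD-2328D6.1 went toward RBBP5, at 208, 155 and 157 FPKM against 5110, 4741 and 3014 FPKM. MIRLET7DHG, a host of let-7 microRNAs, measured 4.07, 4.04 and 6.31 FPKM against 56.3, 64.7 and 60.7 FPKM, with 92.2% of its bases in stretches shared with other genes. KLHL22-IT1 was listed at 0 in WDR5 replicates 1 and 3. It lost its call in a fit of the 6 libraries alone with the replicate number as a block (adjusted p = 0.0573 by limma).

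Mitochondrially encoded mRNA was higher in RBBP5. All 13 mRNAs of the mitochondrial genome, subunits of the respiratory chain, were higher in RBBP5 on both scales, with log2 differences from −2.09 (MT-ATP6) to −2.56 (MT-ND5). MT-CO3, the most abundant, measured 150, 109 and 169 FPKM in WDR5 and 665, 665 and 607 FPKM in RBBP5. MT-ND1, the least abundant of the 13, measured 8.21, 6.38 and 13.3 FPKM against 41.2, 38.7 and 48.4 FPKM. All 13 averaged less in both pull-downs than in input, where MT-CO3 averaged 1689 FPKM and MT-ND1 102 FPKM. Together they took 0.0954% to 0.1498% of the WDR5 and 0.527% to 0.532% of the RBBP5 total. Of 15 mitochondrial tRNA genes MT-TS2 alone was called as deposited, listed at 0 in all WDR5 libraries, and MT-TT, listed at 0 in all RBBP5 libraries, was called higher in WDR5 after centring or without WDR5 replicate 1. Among nuclear genes of the organelle, 6 of 77 mitochondrial ribosomal protein mRNAs were higher in WDR5 on both scales and 1 higher in RBBP5 as deposited, with a median of 0.36, where 7.65% and 6.34% of all mRNAs were called. The 6 became 10 without WDR5 replicate 1, and the 1 ranged from 0 to 3 without each library. Of 89 nuclear-encoded respiratory chain mRNAs 4 and 1 were called, with a median of 0.26, and the 1 was 2 without RBBP5 replicate 1. After centring the counts of these 2 lists were 34 and 0, and 25 and 0, against 24.3% and 1.76% of all mRNAs.

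mRNAs of the proteins' own complex had a median above that of all mRNAs. Of the 10 core subunits, 2 were higher in WDR5 on both scales, 6 after centring, and none in RBBP5 on either, with a median of 0.62, against 7.65%, 24.3% and 0.01 over all mRNAs. At an unadjusted p under 0.05 by limma, whatever the fold, 6 were higher in WDR5 and 1, KMT2A, in RBBP5. SETD1B, an H3K4 methyltransferase, measured 13.2, 10.96 and 17.6 FPKM in WDR5 and 4.07, 4.25 and 4.41 FPKM in RBBP5 (1.49 ± 0.16, adjusted p = 1.13e-11). KMT2D measured 56.2, 45.5 and 88.0 FPKM against 24.8, 25.8 and 39.2 FPKM (1.03 ± 0.19, adjusted p = 1.3e-05). It fell below the call without WDR5 replicate 3 (0.77) or without RBBP5 replicate 1 (0.92) or 2 (0.94), and in a fit of the 6 libraries alone (adjusted p = 0.062 by limma). The count of 2 was 4 without WDR5 replicate 2 or RBBP5 replicate 3, and 1 without WDR5 replicate 3 or RBBP5 replicate 1.

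WDR5's own mRNA measured 36.0, 34.7 and 63.7 FPKM in its own pull-down and 17.3, 20.3 and 29.1 FPKM in that of RBBP5, a difference of 0.95 ± 0.23 (adjusted p = 6.05e-04) just short of the fold asked, and past it without WDR5 replicate 1 (1.08), WDR5 replicate 2 (1.11) or RBBP5 replicate 3 (1.16), with TPM (1.15) and after centring (1.52). RBBP5's own mRNA was not higher in its own pull-down, at 25.1, 27.2 and 27.4 FPKM against 30.5, 31.0 and 35.9 FPKM with WDR5 (0.28 ± 0.14, adjusted p = 0.112). SETD1A and WBP7 (KMT2B) were higher by 0.91 and 0.76 and DPY30 by 0.47, and all 3 were called after centring. SETD1A was also called with TPM (1.15), with a pseudocount of 0.1 (1.04) and without WDR5 replicate 2 (1.05), RBBP5 replicate 2 (1.03) or RBBP5 replicate 3 (1.00). KMT2A, a fusion partner in leukemia, went the other way at −0.89 (adjusted p = 1.21e-04), with 24.1, 23.4 and 25.1 FPKM against 50.9, 41.8 and 44.6 FPKM. KMT2C differed by −0.01 as deposited and 0.55 after centring, and ASH2L by −0.19 and 0.38, so that neither has a direction that both scales share.

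Accessory subunits gave 3 of 11 higher in WDR5 on both scales and none in RBBP5, or 1 without WDR5 replicate 1 or RBBP5 replicate 3. The 3 higher in WDR5 were MEN1, the menin tumour suppressor (20.3, 21.9 and 26.7 FPKM against 7.50, 11.3 and 7.98 FPKM), NCOA6 (1.25) and WDR82 (1.17). At an unadjusted p under 0.05 by limma 6 members were higher in WDR5 and 3 in RBBP5. PSIP1, which tethers MLL to chromatin, differed by −0.92 and was not called. Of 19 subunits of the other WDR5 complexes, NSL and ATAC, TADA3 was higher in WDR5 on both scales (103, 89.1 and 64.5 FPKM against 36.8, 37.9 and 27.6 FPKM). That count of 1 was 2 without RBBP5 replicate 3. After centring 7 members were higher in WDR5 and none in RBBP5, when 24.3% and 1.76% of all mRNAs were, and at an unadjusted p under 0.05 by limma, as deposited, 8 and 6. PHF20L1 and OGT were higher in RBBP5 on the deposited scale only, at −1.14 and −1.03, OGT with overlapping groups, and their number fell to 1 without WDR5 replicate 3, RBBP5 replicate 1 or RBBP5 replicate 2.

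Immediate early and other short-lived mRNAs had the highest median of the fixed lists, 0.92 against 0.01 over all mRNAs. Of 23 tested, 10 were higher in WDR5 on both scales and none in RBBP5 on either, and at an unadjusted p under 0.05 by limma 14 and 0. MYC, a growth regulator, measured 164, 173 and 204 FPKM in WDR5 and 45.3, 61.6 and 63.97 FPKM in RBBP5 (1.65). IER5 measured 67.2, 61.1 and 95.9 FPKM against 17.4, 15.9 and 19.8 FPKM (1.99). JUN and JUNB, partners of JUND in AP-1, differed by 1.62 and 1.44, and BTG1 and ZFP36L2 by 1.44 each. FOS did not follow, at 8.41, 5.30 and 3.29 FPKM against 11.01, 7.79 and 2.64 FPKM, with overlapping groups. ATF3 was low in replicate 3 of both proteins, 5.48 FPKM in WDR5 and 3.01 FPKM in RBBP5, against 31.8 to 58.3 FPKM in the other 4.

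Among 23 hematopoietic and erythroid genes 5 were higher in WDR5 on both scales, all regulators or a receptor: GATA2, NFE2, TAL1, KLF1 and EPOR. GATA2 measured 117, 99.3 and 154 FPKM against 35.2, 44.2 and 48.1 FPKM (1.51), and KLF1, a master regulator of erythroid genes, 65.8, 68.9 and 84.5 FPKM against 21.6, 28.4 and 33.8 FPKM (1.37). TFRC, the transferrin receptor, was higher in RBBP5 on the deposited scale, with 162, 168 and 150 FPKM against 370, 411 and 344 FPKM (−1.22), the only such member but for 1 more without WDR5 replicate 1 or RBBP5 replicate 3. The globin mRNAs HBG1, HBG2, HBE1, HBA1, HBA2 and HBZ differed by −0.09 to 0.34 with overlapping groups. Of 13 HOX genes, HOXB7, HOXB8 and HOXB9 were higher in WDR5 (1.29 to 1.30), and only 1 was without RBBP5 replicate 3.

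Lists of chromosome, centrosome and Golgi scaffold genes changed their balance with the scale. Of 14 cohesin and SMC genes none was higher in WDR5 as deposited and 4 were higher in RBBP5, with a median of −0.78, and 1 and 11 were so at an unadjusted p under 0.05 by limma. SMC4, a condensin subunit, measured 83.4, 80.1 and 102 FPKM against 250, 249 and 229 FPKM (−1.45). SMC5, of the SMC5/6 repair complex, was the 1 member called on both scales (−1.58), and CTCF was called higher in WDR5 after centring. Of 89 centrosome and kinesin genes 5 were higher in WDR5 and 15 in RBBP5 as deposited, with a median of −0.26, 14 and 3 after centring, with a median of 0.30, and 5 and 3 on both scales. PCM1, a pericentriolar scaffold, measured 91.6, 95.9 and 99.1 FPKM against 282, 242 and 242 FPKM (−1.41). GCC2, a golgin, measured 17.8, 17.5 and 15.5 FPKM against 69.8, 82.1 and 61.2 FPKM, one of 11 golgins in which 1 was higher in WDR5 and 2 in RBBP5 as deposited, and 3 and 1 after centring. The 1 was lost without WDR5 replicate 1 or RBBP5 replicate 3.

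Splicing regulators and zinc finger genes gave calls in both directions as deposited. HNRNPH1, which binds G-rich splice elements, measured 228, 261 and 382 FPKM in WDR5 and 1211, 1240 and 1380 FPKM in RBBP5 (−2.17), and was one of 3 of 38 hnRNP and SR genes higher in RBBP5 on both scales, with 2 higher in WDR5. The list's median was −0.35 as deposited and 0.22 after centring, with 26 members below 0 and 12 above as deposited, and 5 toward WDR5 and 17 toward RBBP5 at an unadjusted p under 0.05 by limma. As deposited 4 were higher in RBBP5, and 7 without WDR5 replicate 3, when the count for WDR5 was 1, as it was without RBBP5 replicate 1 or 2. Of 450 ZNF mRNAs 57 were higher in WDR5 and 22 in RBBP5 as deposited, 155 and 6 after centring, and 57 and 6 on both scales, with a median of 0.13, beside 7.65% and 6.34% of all mRNAs as deposited. ZNF639 measured 170, 184 and 257 FPKM against 42.0, 48.3 and 61.9 FPKM, and ZNF207 went the other way on the deposited scale, with 84.3, 95.5 and 110.6 FPKM against 266, 279 and 274 FPKM.

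Housekeeping and other lists had these calls on the deposited scale, beside 7.65% of all mRNAs higher in WDR5 and 6.34% in RBBP5. Cytosolic ribosomal protein mRNAs gave 1 of 84 in each direction with a median of 0.04, and RPL11, the most abundant, measured 1000, 986 and 1015 FPKM against 932, 942 and 1118 FPKM. Replication-dependent histones gave none of 76 by limma, and 3 in each direction at an unadjusted p under 0.05. Proteasome subunits gave 1 and 1 of 41, translation factors 2 and 3 of 60, heat shock genes and chaperones 4 and 2 of 55, cholesterol synthesis genes 1 and 3 of 22, chromatin remodelers and histone methylation genes 6 and 6 of 74, and snoRNA host genes 1 and 5 of 30, counting WDR5 first. At an unadjusted p under 0.05 by limma, whatever the fold, the counts were 7 and 13 for ribosomal proteins, 2 and 10 for the proteasome, 6 and 22 for translation factors, 12 and 10 for heat shock genes, 5 and 5 for cholesterol synthesis, 17 and 32 for chromatin genes and 4 and 11 for snoRNA hosts. The share of all mRNAs at that threshold was not taken, so these counts have no background to be read against. Leaving out 1 library moved the counts of calls by at most 3 genes, the most for cholesterol synthesis in RBBP5, which had 0 without WDR5 replicate 3 and 1 without RBBP5 replicate 1. After centring, 8 ribosomal protein and 7 histone mRNAs were called higher in WDR5 and none in RBBP5, where the scale is shifted by 0.56.

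**Figure D5:**
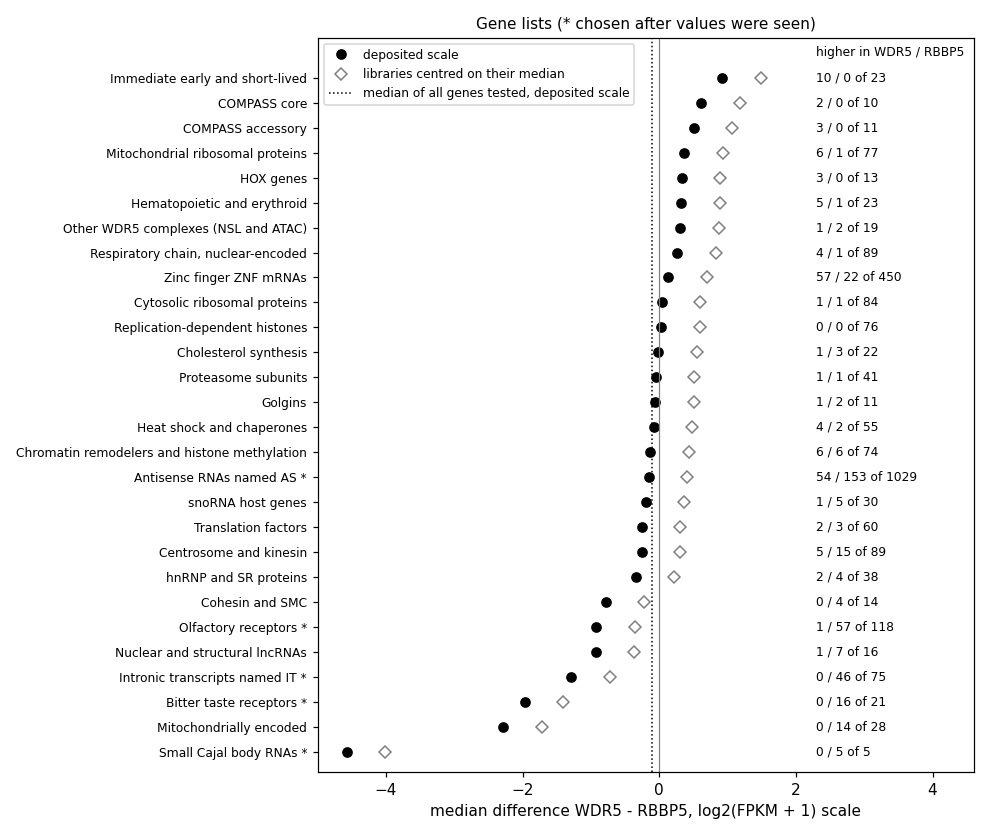
Median WDR5 minus RBBP5 difference on the log2(FPKM + 1) scale for each gene list, as deposited (filled circles) and with libraries centred on their median (open diamonds); the dotted line is the median of all genes tested, −0.11. Figures at the right count members called higher in WDR5 and in RBBP5 of those tested, as deposited, and an asterisk marks lists drawn up after values were seen; immediate early genes lie highest (0.92) and scaRNAs lowest (−4.58).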

How the data were processed

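The gene and isoform tables were deposited as FPKM by the authors, who, per the labels and the study's methods, aligned reads with TopHat to hg19 and GENCODE v18 and estimated abundance with Cuffdiff and Cuffnorm (CASAVA 1.4 is also listed). Their tables of calls against input were not used. FPKM are not counts: depth was estimated from the steps of low FPKM values in single-isoform genes (96.0% to 98.3% within 0.15 of a whole number) and is approximate. Gene classes, transcripts and positions came from GENCODE v44 lifted to GRCh37, the same assembly, which matched 46055 of 48453 genes and 169824 of 185661 isoforms.

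Tested were the 25442 genes that reached 1 FPKM in 2 or more of the 79 libraries, by limma 3.58.1 (R 4.3.3) on log2(FPKM + 1), with 1 mean per protein and input set. Isoform usage was tested on the log2 ratio of an isoform to the rest of its gene, with 1 added to each, in genes with a mean of at least 5 FPKM and with at least 1 FPKM in the isoform and in the rest. Shares and correlations used Python 3.11.15 and scipy 1.17.1. GC content, length and 4-mers were those of the isoform with the most input FPKM. On simulated data the gene test recovered 86% of 100 changes of 1.5 and 94% of 100 changes of 2 (log2) with 5 other calls among 25442 genes, and the usage test 36% and 67% with 2 other calls among 39294 isoforms. The simulation gave each library independent normal noise of the feature's own spread, with no shared replicate effect, zeros or differences in depth. It therefore does not show how the tests perform where these are present.

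Replicates of the same number deviated from their group means together (r = 0.278, 0.146 and 0.430 over genes), and different numbers correlated at −0.361 to 0.134. The 0.146 of number 2 was close to the 0.134 of WDR5 replicate 1 with RBBP5 replicate 2. It was also close to the 0.102 of WDR5 replicate 2 with RBBP5 replicate 1. Deviations from a group mean offset one another, so these values cannot decide whether the numbers pair the libraries. The main fit did not pair them, and fits with the replicate number as a block are given as alternatives. The labels do not say what a number marks.

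Named were the 10 mRNA and 5 lncRNA genes of largest difference in each direction among those called on both scales with groups apart and a mean of at least 5 FPKM, the 10 core subunits, 6 isoforms in each direction, the 4 most abundant members of each list (not all are printed) and the 2 most abundant genes of small classes. Members and lists were chosen with earlier results of these data known, and list members beyond the 4 most abundant, like the receptor, IT, AS and scaRNA lists, after their values were seen. Some genes of small classes that met the rule, and 1 marker of another cell type, are not reported here.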

Additional observations from a re-analysis of the deposited data

How the results depend on the processing

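Calls on the deposited scale numbered 1319 higher in WDR5 and 3284 higher in RBBP5. Centred libraries gave 4297 and 1435, and centred libraries with the 6 libraries alone and the replicate block 4232 and 1362. TPM gave 2160 higher in WDR5 and a minimum mean of 5 FPKM over the 6 libraries 1118 higher in WDR5 and 1031 in RBBP5, with fewer genes tested and the majority turned. Leaving out each replicate gave 1263 to 1385 and 3136 to 3463, and with centred libraries, chosen after the data were seen, 4076 to 4559 and 1333 to 1498. On the deposited scale the 6 libraries alone gave 1121 and 2844 genes and 4229 and 7057 isoforms. With the replicate block added they gave 1256 and 2802 genes and 4168 and 6661 isoforms. This fit with the block lost the calls of AC005280.1, KLHL22-IT1 (adjusted p = 0.0573 by limma) and SCARNA22, and changed that of no other named gene or isoform. Without the block the 6 libraries had already lost AC005280.1 (adjusted p = 0.0558 by limma) and SCARNA22 (0.0892), and also BBC3 and KMT2D. Isoform counts stayed within 1.5 times of 5113 and 8037 under every alternative run, and leaving out each replicate gave 4433 to 4997 and 7435 to 7975.

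Spearman's correlation with GC content was 0.36 with TPM, 0.36 with a pseudocount of 0.1, 0.32 with no filter, 0.43 and 0.46 with a mean of at least 1 and 5 FPKM, 0.37 with the longest isoform and 0.36 in lncRNA genes, in genes with no retained intron isoform and with coding isoforms alone, and 0.36 to 0.40 without each replicate. With exon number it was −0.15 with TPM, −0.15 with a pseudocount of 0.1, −0.13 with no filter, −0.23 and −0.30 with a mean of at least 1 and 5 FPKM, −0.25 with the longest isoform and 0.10 in lncRNA genes, and −0.19 to −0.17 without each replicate. With length it was −0.0865 with TPM, −0.0870 with no filter, −0.15 and −0.19 with a mean of at least 1 and 5 FPKM, −0.18 with the longest isoform and 0.00738 in lncRNA genes, and −0.12 to −0.10 without each replicate. With UUUUAAAA it was −0.13 with TPM or a pseudocount of 0.1, −0.12 with no filter, −0.17 and −0.19 with a mean of at least 1 and 5 FPKM, −0.17 with the longest isoform and −0.0870 in lncRNA genes, and −0.15 to −0.14 without each replicate. With input FPKM it was 0.0943 with TPM, −0.0493 and −0.131 with a mean of at least 1 and 5 FPKM and −0.16 in lncRNA genes, and −0.00527 to 0.0605 without each replicate, the lowest without RBBP5 replicate 1. With genomic span it was −0.27 in mRNA and 0.0672 in lncRNA genes. The cause of these moves was not tested.

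The retained intron difference was −10.9 percentage points as a mean over genes and −12.9 to −11.7 without each replicate. The mRNA share differed by 8.01 and the lncRNA share by −5.05 points without mitochondrial tRNA genes, and by 11.3 to 12.4 and −4.71 to −4.19 without each replicate. KMT2C turned from −0.01 to 0.55 with centred libraries with or without the replicate block, 0.18 with TPM and 0.0875, 0.03 and 0.07 without WDR5 replicate 2, RBBP5 replicate 2 and RBBP5 replicate 3. ASH2L turned from −0.19 to 0.38 with centred libraries, with or without the block. Among values of single named genes, 878 under an alternative kept direction and call, 15 lost and 17 gained a call, and of list counts 766 stayed within 1.5 times and 186 did not. Depth of 6.73 M to 8.07 M fragments in 4 libraries limits low and short genes most.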
